A study of Mus musculus with 2 samples.

Results

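The genes described here are 9 coagulation and plasminogen genes that monocytes can express: F3, F7, F10, F13a1, Plau, Plaur, Serpinb2, Thbs1 and Thbd. They were taken as a list of symbols from the 22180 genes that have a probe set with a single gene symbol, and each was represented by 1 probe set. RNA came from inflammatory monocytes sorted from colon lamina propria as CD11b-positive, Ly6C-high cells without CD3 or Ly6G. The cells were from Nlrp6-/- mice, which lack a NOD-like receptor, and from WT mice, both on a C57BL/6 strain label. All mice, in both genotypes, had received 10 mg/kg of the carcinogen azoxymethane (AOM), then, beginning on day 5, 5 days of 2% dextran sodium sulfate (DSS), an agent that damages the lining of the colon, and cells were taken on day 10. The labels give neither the age of the mice nor how many contributed to each RNA. Each genotype was measured on 1 Affymetrix Mouse Gene 2.1 ST array, so the differences below carry no error and no p-value and describe these 2 samples alone.

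Levels are log2 values from robust multiarray average (RMA) normalization, and a difference is Nlrp6-/- minus WT, so that 1 on this scale is 2-fold. A detection floor was set on each array from 1400 probe sets of olfactory and vomeronasal receptors, which monocytes are not known to use, at 3.23 for Nlrp6-/- and 3.26 for WT. All 9 members were above the floor on both arrays. Of all genes, 9525 exceeded at least 1 of the floors, with a median difference of 0.0039, and 4830 of them were higher and 4605 lower in Nlrp6-/-. The receptor genes themselves differed between the arrays with an SD of 0.19. Several probe sets above both floors were present for 422 genes. From the lowest to the highest difference among the sets of a gene, they disagreed by a median of 0.31. At the 90th percentile they disagreed by 0.79. This disagreement holds no spread between samples. Nlrp6 was below the floor in Nlrp6-/-, at 2.67, and in WT, at 2.32, and so gave no check of the genotype.

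Coagulation starts when tissue factor, a membrane protein, meets factor VII and the complex activates factor X, which leads to thrombin, to fibrin and finally to fibrin cross-linked by factor XIII. Plasmin dissolves the clot again, and it is made from plasminogen by urokinase bound to its receptor or by tissue plasminogen activator. Monocytes take part on both sides, since they can display tissue factor and carry the urokinase receptor, and fibrin deposition and removal accompany injury of the inflamed colon.

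Among the 9 members, F13a1 and F3 were higher in Nlrp6-/- and Plau was lower, each by more than 1.5-fold, while the other 6 lay within 1.5-fold. F13a1 was the one member past 2-fold, at 1.06 on the log2 scale. F3 was higher by 0.98 and Plau was at -0.83. Counting direction alone, 3 members were higher and 6 lower, and their median difference was -0.14. One gene in 9 past 2-fold in the upward direction stands beside 1.62% of all 9525 genes, and 0 members were at least 2-fold lower, beside 0.325%. At 1.5-fold, 2 members were higher beside 6.22% of all genes, and 1 was lower beside 3.06%. The 3 differences were also the ones that exceeded 0.79, and the other 6 members differed by less than the median disagreement of 0.31. In a bulk RNA sample such as this, fewer cells that express a gene and less of its RNA per cell cannot be told apart.

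**Figure D1:**
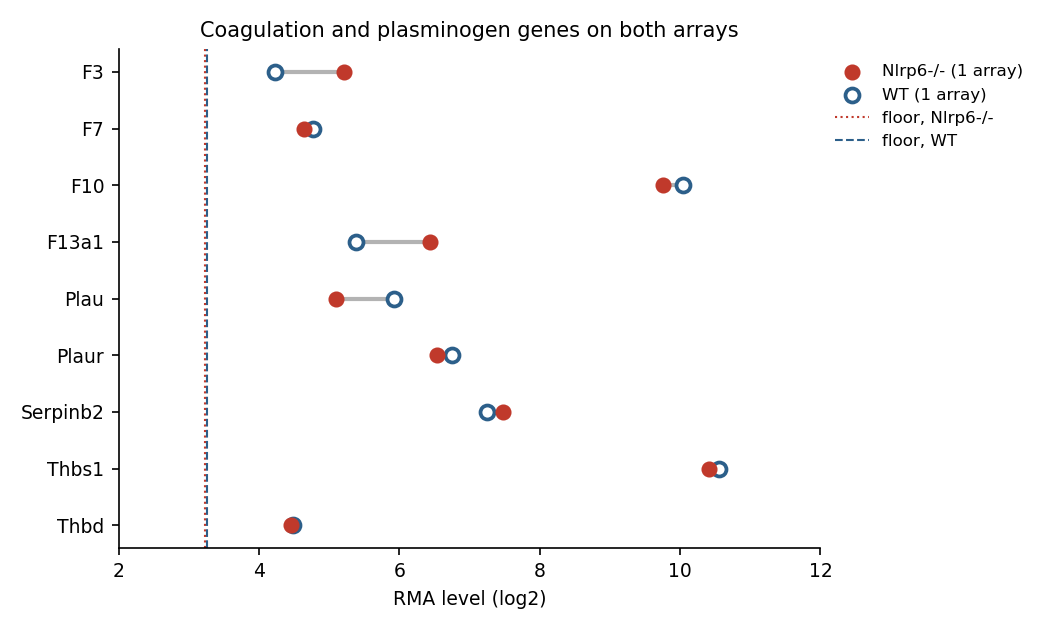
RMA levels (log2) of the 9 members on the Nlrp6-/- array (filled red) and the WT array (open blue), with the detection floors of 3.23 and 3.26 as vertical lines. F3 and F13a1 have the red point well to the right, Plau has it to the left, and the points of the other 6 genes lie close together.

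Of the initiating genes of the cascade, 1 was higher and the other 2 were slightly lower. F3, which encodes tissue factor, was at 5.20 in Nlrp6-/- and at 4.22 in WT, a 1.97-fold difference. Both levels were dim: 10 of the 1400 receptor probe sets reached the Nlrp6-/- level and 27 reached the WT level. Among the 8560 genes above both floors, 1.79% had a difference at least as high. When the floor was raised to the 99th percentile of the receptor probe sets, F3 was above the floor in Nlrp6-/- only and its difference became a bound of 0.12. F7, the circulating protease that tissue factor binds, was at 4.63 in Nlrp6-/- and 4.77 in WT. F10, which encodes the protease that the complex activates, was at 9.76 in Nlrp6-/- and 10.04 in WT. F7 and F10 thus differed by -0.14 and -0.28, within 1.5-fold, and the F3 difference exceeded that of F10 by 1.26 on the log2 scale.

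Tissue factor is also made by epithelial cells and fibroblasts, and markers of both were higher in the Nlrp6-/- sample. Of 12 epithelial markers, 10 were higher and 1 lower, 8 were at least 1.5-fold higher, and the sum of their linear levels was 523 in Nlrp6-/- and 255 in WT. Muc13, a membrane mucin, was higher by 1.79, Lgals4, a gut lectin, by 1.57, the adhesion gene Cdh1 by 1.47 and the keratin Krt18 by 1.42, while Krt20 was below both floors. Of 10 fibroblast markers, 9 were higher and 6 by at least 1.5-fold, with linear sums of 1371 in Nlrp6-/- and 632 in WT. Mgp was higher by 1.45, Dpt by 1.27, Col1a2 by 1.19 and Lum by 1.18, and Pdgfra was at -0.08. The part of such cells in the F3 difference was not tested.

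The promoter of F3 is shown because it carries a pair of AP-1 motifs, the binding sequence of the Fos and Jun factors, close together. The 250 bases before the start of the gene are at chr3:121723287-121723536 on the plus strand of GRCm38.p6 (RefSeq), with every motif match in capitals.
F3: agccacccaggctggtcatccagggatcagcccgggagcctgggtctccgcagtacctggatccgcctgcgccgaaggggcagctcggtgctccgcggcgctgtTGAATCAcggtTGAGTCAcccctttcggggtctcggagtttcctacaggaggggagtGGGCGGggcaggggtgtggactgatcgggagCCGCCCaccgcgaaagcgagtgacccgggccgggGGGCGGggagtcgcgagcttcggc
AP-1 was searched as TGANTCA on both strands and was found from 146 to 140 and from 135 to 129 bases before the start. The other capitals are 3 matches of the SP1 motif GGGCGG, from 89 to 84, from 58 to 53 on the opposite strand and from 24 to 19 bases before the start. Among 32851 promoters of the same length, 6.75% held an AP-1 match and 32.7% an SP1 match. A match describes these letters and not a bound factor, and a site that departs from the searched letters is not in capitals.

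F13a1 had the largest difference of the 9. It encodes the catalytic A subunit of factor XIII, the transglutaminase that cross-links fibrin, which monocytes and macrophages also hold inside the cell. Its level was 6.44 in Nlrp6-/- and 5.38 in WT, a 2.09-fold difference. Of the genes above both floors, 1.31% were at least as high. Under 3 other normalizations of the arrays, which RMA had already normalized, the difference ran from 1.03 to 1.06. Its single probe set was above every floor tried, so the other settings could not change it. Of the 1400 receptor probe sets, 3 reached its level in Nlrp6-/- and 9 its level in WT. F13b, the carrier subunit that the liver makes, was below both floors at 1.92 in Nlrp6-/- and 1.83 in WT.

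Platelets are another rich source of factor XIII A subunit, and of thrombospondin 1, and their markers were examined beside these genes. Of 12 platelet and megakaryocyte markers, 9 had a probe set and 6 of these were below both floors, among them Itga2b at 2.60 in Nlrp6-/- and 2.67 in WT, and Gp9 at 2.31 in Nlrp6-/- and 2.78 in WT. Pf4, a platelet chemokine that mouse macrophages also express, was at 6.11 in Nlrp6-/- and 4.87 in WT. Ppbp, another platelet chemokine, was below the floor in Nlrp6-/- at 2.90 and at 3.74 in WT, so it went the other way. The linear sum of the 9 was 123 in Nlrp6-/- and 92.2 in WT. Pf4, the brightest of them on both arrays and the one marker at least 1.5-fold higher, set the direction of that sum. Of the 3 above a floor, 1 was higher and 1 lower, with a median of 0. That median is the bound of Treml1, above the floor in Nlrp6-/- only, whose measured difference was 0.05. Its bound was set to 0 because its Nlrp6-/- level, 3.24, was under the WT floor of 3.26. The part of platelets in the F13a1 difference was not tested.

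Monocyte markers were close to equal on the arrays. All 11 of the 12 that had a probe set were above both floors, with 5 higher, 6 lower and a median of -0.08, and none was 1.5-fold apart. Plac8, at 0.07, was nearest to 0. The largest difference was that of Lyz2, at -0.33, and Cd14 was at -0.22. Ly6c2, the sorted antigen, was at 9.36 in Nlrp6-/- and 9.06 in WT, and Ccr2, the chemokine receptor that brings these cells into tissue, was at 6.30 in Nlrp6-/- and 5.98 in WT. Markers of resident macrophages had a median of 0.07 over 8 genes above a floor, and no difference or bound reached 1.5-fold. Adgre1 was at -0.25, Mrc1 at 0.08 and Lyve1, nearest to 0 of those above both floors, at 0.07. Hpgds and Mertk gave bounds of 0.07 and -0.07, with measured differences of 0.35 and -0.51. Markers of large peritoneal macrophages, cells known for coagulation factor expression in mice, were mostly below both floors (4 of 6, Gata6 included), and Icam2 was at 0.09 and Selp at -0.22.

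The promoters at the 2 annotated starts of F13a1 are shown because this gene had the largest difference of the members. Neither held any of the 9 motifs searched. Both lie on the minus strand of GRCm38.p6, the first at chr13:37050245-37050494 and the second at chr13:37049214-37049463.
F13a1, first start: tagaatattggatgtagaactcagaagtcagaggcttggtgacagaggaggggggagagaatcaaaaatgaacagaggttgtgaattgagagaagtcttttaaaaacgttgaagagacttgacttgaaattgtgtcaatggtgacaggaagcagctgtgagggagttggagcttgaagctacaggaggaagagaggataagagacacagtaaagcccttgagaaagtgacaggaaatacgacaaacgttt
F13a1, second start: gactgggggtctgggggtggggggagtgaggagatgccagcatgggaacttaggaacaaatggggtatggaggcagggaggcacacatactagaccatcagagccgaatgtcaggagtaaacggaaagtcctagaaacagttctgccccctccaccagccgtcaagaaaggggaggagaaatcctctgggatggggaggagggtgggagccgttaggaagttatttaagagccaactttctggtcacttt
Besides AP-1 and SP1, the motifs were CRE (TGACGTCA), NF-kB (GGG and TTTCC with any 2 bases between them), EGR (GCGNGGGCG), C/EBP (TTNNGCAA), the interferon-stimulated response element ISRE (GAAA and GAAA with any 2 bases between them), PU.1 (GAGGAAGT) and the antioxidant response element (TGACNNNGC), each on both strands. Of all promoters, 1.55% held CRE, 1.41% NF-kB, 4.70% EGR, 9.56% C/EBP, 2.98% ISRE, 2.44% PU.1 and 10.2% the antioxidant response element. No match says only that these letters are not in this window. The promoters of F7 and F10 held none of the 9 either.

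**Figure D2:**
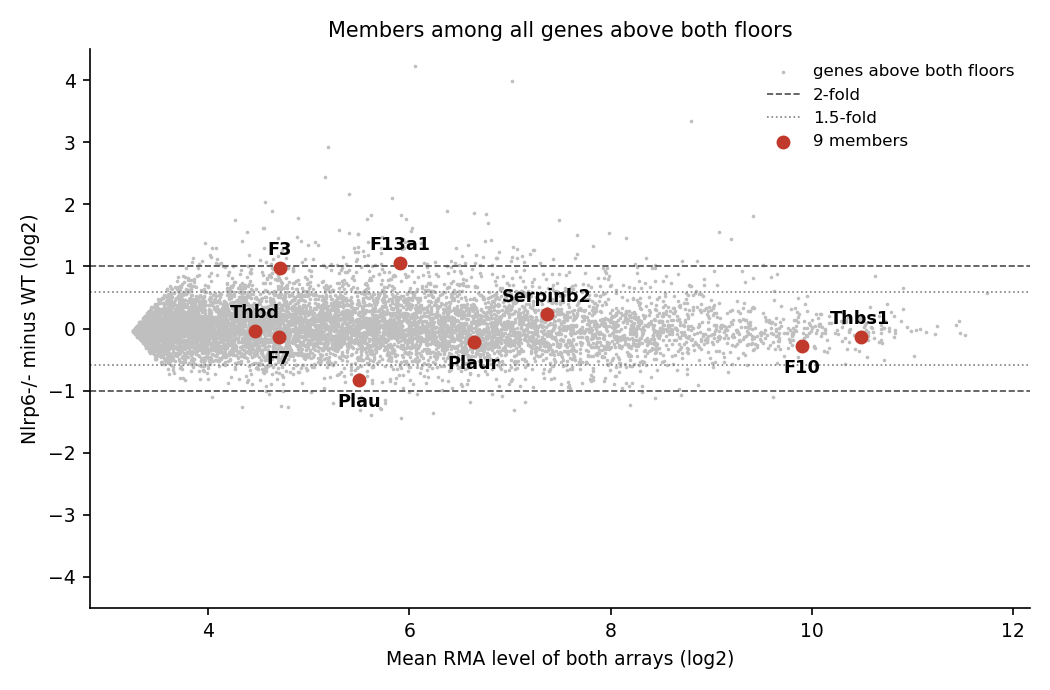
Difference between the arrays (Nlrp6-/- minus WT, log2) against the mean RMA level (log2) for the 8560 genes above both floors in grey and the 9 members in red, with 2-fold and 1.5-fold lines. F13a1 lies just above the upper 2-fold line, F3 just under it and Plau beyond the lower 1.5-fold line, while Thbs1, F10, Serpinb2, Plaur, F7 and Thbd lie within the grey band.

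The plasminogen genes differed in both directions. Plau, which encodes urokinase, was at 5.09 in Nlrp6-/- and 5.92 in WT, a 1.77-fold lower level. Of the 1400 receptor probe sets, 10 reached its level in Nlrp6-/- and 5 its level in WT. Of the genes above both floors, 0.946% were at least as low and under the 3 other normalizations the difference ran from -0.86 to -0.83. Plaur, the receptor that holds urokinase on the cell surface, was at 6.53 in Nlrp6-/- and 6.74 in WT. Serpinb2, plasminogen activator inhibitor 2, which blocks urokinase and stays largely inside the cell, was at 7.48 in Nlrp6-/- and 7.25 in WT. Plaur at -0.21 and Serpinb2 at 0.23 were both within 1.5-fold. The Plau difference minus that of its receptor was -0.62 on the log2 scale, and minus that of its inhibitor -1.05.

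Of the other plasminogen genes, Plat was the one above a floor. It encodes tissue plasminogen activator, the second enzyme that makes plasmin, and was at 5.51 in Nlrp6-/- and 4.87 in WT, higher by 0.64. The 2 activators therefore differed in opposite directions. Endothelial cells are a known source of Plat, and 7 of 10 endothelial markers were below both floors, while Pecam1, which monocytes share, was at 0.24, Kdr, a receptor of vascular endothelial growth factor, at 0.19 and Cdh5 at -0.39. The linear sum of the 10 markers was 184 in Nlrp6-/- and 167 in WT, a gap that came mostly from Pecam1. The part of endothelial cells in the Plat difference was not tested. Plg, plasminogen itself, was below both floors, as were Serpinf2, Hrg, Vtn and A2m.

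The promoters of Plaur and Serpinb2, genes that differed by less than 1.5-fold, are shown beside that of F3 because each also holds an AP-1 match. Both are on the plus strand of GRCm38.p6, at chr7:24462233-24462482 for Plaur and chr1:107511173-107511422 for the first start of Serpinb2.
Plaur: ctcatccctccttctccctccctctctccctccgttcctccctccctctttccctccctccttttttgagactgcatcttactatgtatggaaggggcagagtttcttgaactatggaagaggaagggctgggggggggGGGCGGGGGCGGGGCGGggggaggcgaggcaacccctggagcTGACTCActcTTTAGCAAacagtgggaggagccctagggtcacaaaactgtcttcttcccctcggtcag
Serpinb2: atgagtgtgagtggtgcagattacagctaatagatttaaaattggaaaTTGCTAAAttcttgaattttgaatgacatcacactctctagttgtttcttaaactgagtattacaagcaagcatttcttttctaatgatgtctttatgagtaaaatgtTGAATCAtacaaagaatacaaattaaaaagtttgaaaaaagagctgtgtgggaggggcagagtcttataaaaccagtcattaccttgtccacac
In Plaur the AP-1 match is from 69 to 63 bases before the start, a C/EBP match is from 59 to 52, and an EGR match from 109 to 101 overlaps a run of 3 SP1 matches. In Serpinb2 the AP-1 match is from 94 to 88 bases before the start and a C/EBP match is from 202 to 195 on the opposite strand. AP-1 matches thus stood before 3 of the 6 members that have an entry in the promoter table, and these 3 differed by 0.98, -0.21 and 0.23. Of all 32851 promoters, counted by start site and not by gene, 6.75% held an AP-1 match. The 3 members without an entry are Plau, Thbs1 and Thbd.

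Receptors and partners on the cell surface that localise plasmin differed by less than 1.5-fold. Of 10 such genes 9 had a probe set and 8 were above both floors, with 4 higher and 4 lower and a median of -0.08. The largest difference was that of Itgb1, an integrin chain that partners the urokinase receptor, at -0.45. Plgrkt, a plasminogen receptor, was at 7.71 in Nlrp6-/- and 7.27 in WT, a difference of 0.44. S100a10, which binds plasminogen together with annexin A2, was higher by 0.34, and Anxa2 by 0.08. Lrp1, which clears urokinase bound to its inhibitors, was at -0.41, and the Mac-1 chains Itgam and Itgb2 were at -0.21 and -0.36. Fpr2, a receptor that cleaved urokinase receptor can engage, was at 0.04.

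The 2 members that act on thrombin and matrix were nearly equal on the arrays. Thbs1, thrombospondin 1, a secreted matrix protein that activates latent TGF-beta and engages CD36 and CD47, was at 10.42 in Nlrp6-/- and 10.55 in WT. Thbd, thrombomodulin, which turns thrombin into an activator of protein C, was at 4.45 in Nlrp6-/- and 4.48 in WT. The differences were -0.14 and -0.03, both under the SD of the receptor genes, and F7 was the only other member under that SD. Thbd was dim, since 23 of the 1400 receptor probe sets reached its level on each array. Of the thrombospondins and their receptors, 6 of 9 were above both floors and none was 1.5-fold apart. Cd36 was nearest to that threshold at -0.57, with 3.55 in Nlrp6-/- and 4.11 in WT, and Cd47 was at 0.29. The integrin chains of the vitronectin receptor, Itgav and Itgb3, were at -0.45 and -0.11.

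Of 12 inhibitors and protein C genes, the anticoagulant side on which thrombomodulin works, 5 were above both floors, 4 lower and 1 higher in Nlrp6-/-, with a median of -0.41 that became -0.11 over all 12 without a floor. Among all 9525 genes 4605 were lower, and 3.06% by at least 1.5-fold. Procr, the protein C receptor, was at 7.51 in Nlrp6-/- and 8.36 in WT, and at -0.85 was the one gene past 1.5-fold. Entpd1, which removes the platelet agonist ADP, was at -0.41, as was Proz, a cofactor of factor X inhibition, and Anxa5, which covers the phosphatidylserine that clotting complexes need, was at -0.32. Pros1, protein S, was at 0.08. Tfpi, the direct inhibitor of tissue factor, was below both floors at 2.66 in Nlrp6-/- and 2.50 in WT, as was Proc.

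Of the thrombin receptors, F2r was higher. It encodes PAR1, the main thrombin receptor in several tissues, and was at 6.06 in Nlrp6-/- and 5.14 in WT, a difference of 0.92. F2rl2 was at -0.01, and F2rl3 was above the floor in WT only, with a bound of -0.10. F2rl1 had no probe set with a single gene symbol and gave no value. Fibroblasts also express F2r, and the fibroblast markers given above moved in the same direction; their part was not tested.

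Most other clotting factors were below the detection floors. Of 14 factor and fibrinogen genes 13 had a probe set, 12 were below both floors, and F5, a cofactor of factor X, was the one above them at 4.80 in Nlrp6-/- and 4.85 in WT. Genes that modify or export clotting factors were all within 1.5-fold. Lman1, a cargo receptor for factors V and VIII, was higher by 0.57 and its partner Mcfd2 by 0.12. Ggcx, the carboxylase that activates vitamin K-dependent factors, was at 0.26, Vkorc1 at 0.09 and Vkorc1l1 at -0.13. Across the 9 pathway lists, with transglutaminases and clade B serpins included, 38 of 75 genes with a probe set were above a floor. Of these, 20 were higher and 18 lower, the median difference was 0.019, and 2 were at least 1.5-fold higher and 2 lower. Those 4 genes are 10.5% of the 38, beside 9.27% of all genes, and 0 reached 2-fold, beside 1.94%.

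**Figure D3:**
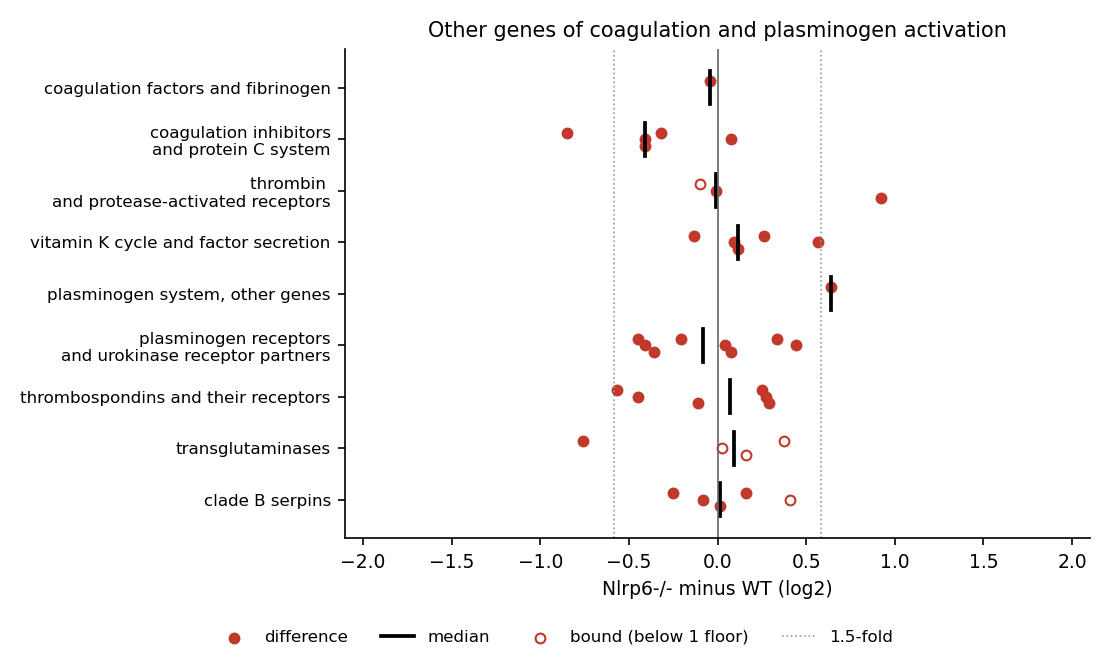
Differences (Nlrp6-/- minus WT, log2) of the pathway genes above at least 1 floor, by list; filled points are differences, open points bounds of genes below 1 floor, and black bars list medians. Most points lie between the 1.5-fold lines, with F2r at 0.92 and Plat at 0.64 to the right and Procr at -0.85 and Tgm2 at -0.76 to the left.

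Other cell types had marker lists of their own. The sort excluded Ly6G-positive and CD3-positive cells, and Ly6g was at 3.58 in Nlrp6-/- and 3.32 in WT, near the floors. Of the CD3 genes, Cd3d was at 4.99 in Nlrp6-/- and 4.52 in WT, Cd3e at 3.98 in Nlrp6-/- and 4.21 in WT, and Cd3g at 3.53 in Nlrp6-/- and 3.33 in WT, so all were above the floors in both samples. Neutrophil markers had a median of 0.59 over 8 genes above a floor and linear sums of 1039 in Nlrp6-/- and 763 in WT, with Retnlg at a bound of 1.95, S100a8 higher by 1.16, S100a9 by 1.03 and Lcn2 by 0.87. Of these 8 genes 6 were higher and 2 lower, Csf3r at -0.05 and Mmp8 at -0.17, and the granule genes Ltf, Camp, Ngp and Mpo were below both floors. The markers of B and plasma cells had linear sums of 1707 in Nlrp6-/- and 1012 in WT and a median of 0.57, with all 8 above a floor higher, led by Mzb1 at 1.62, Jchain at 0.88 and Cd79a at 0.74 and, as a bound, Tnfrsf17 at 0.72. T and NK markers had a median of 0.29, with Gzma at a bound of 1.35. Dendritic cell markers had a median of -0.13 over 3 genes that differed in both directions, Cd209a at -0.43, Ccr7 at -0.13 and Dpp4 at 0.57. The part of these cells in the differences of F13a1, F3 and Plau was not tested.

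**Figure D4:**
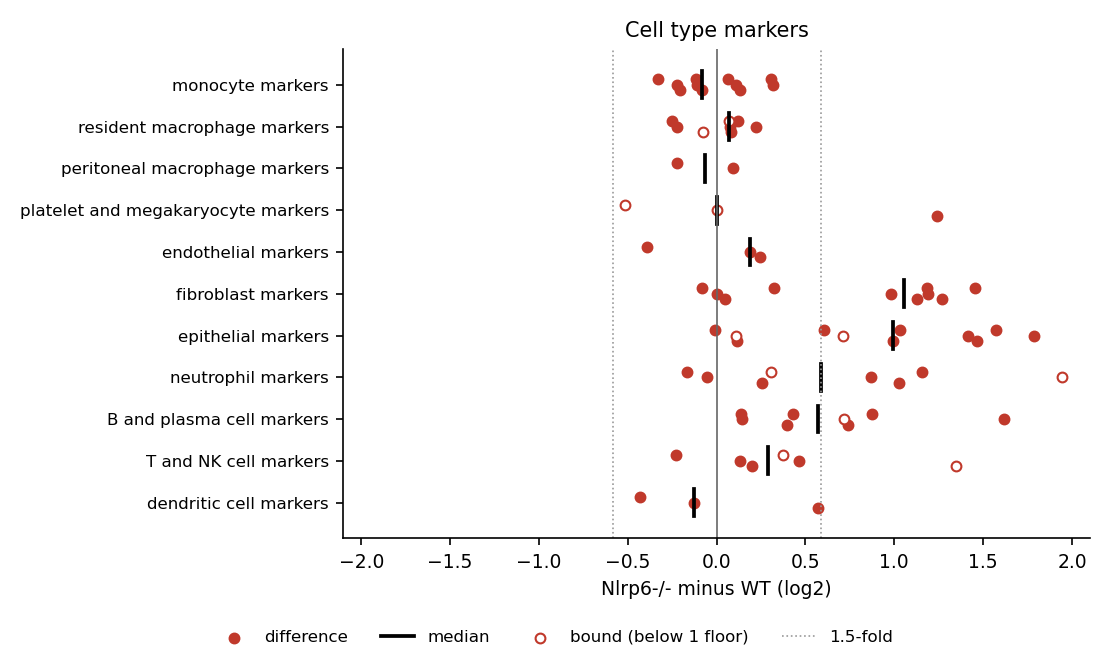
Differences (Nlrp6-/- minus WT, log2) of cell type markers above at least 1 floor, drawn as in the plot of pathway genes. Monocyte and macrophage markers lie within the 1.5-fold lines, and the medians of the fibroblast (1.06) and epithelial (0.99) lists lie to the right of them.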

How the data were processed

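RNA of Ly6C-high monocytes was measured on 1 array per genotype, and the genotype label gave the group. Per the labels' protocols, 10 ng of RNA was amplified to cDNA, and the authors computed log2 expression values by RMA (oligo package of Bioconductor, R 2.15.1). RMA equalises the distributions of the arrays, so a shift of all transcripts cannot be seen. Medians of all probe sets were 2.84 in Nlrp6-/- and 2.87 in WT. Which arrays were normalized together, and the build of the probe annotation, are not given in the sources used here.

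Genes were named from the platform annotation: of 41345 probe sets 23521 had 1 symbol, 1814 several and 16010 none. The probe set with the highest mean stood for a gene. The floor was the 95th percentile of the receptor probe sets. A gene below 1 floor was given as a bound, its level on the other array against that floor, or 0 where that level did not pass it. No test was run, because each genotype had 1 array, which limits the precision. Values were computed with Python 3.11.15, pandas 2.3.3 and statsmodels 0.14.6 and tested on simulated data.

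The members, gene lists, motifs and settings were chosen with earlier results of these data known. Named genes were all members and, in each list, up to 4 genes past 1.5-fold, the nearest to 0 where none passed, and every gene of lists of up to 5. Genes outside this rule were named after their values were seen. They were undetected ones, ends of some lists without a gene past 1.5-fold, marker genes with small or opposite differences, and known partners of members. Promoter sequences are those of RefSeq on GRCm38.p6 for 6 of the 9 members. In all 1681 places where promoters of opposite strands overlap they were reverse complements, as their strand labels require. Alternatives were subtraction of the median or of a loess curve (span 0.3), renewed quantile normalization, floors at the 90th or 99th percentile, no floor, averaging the probe sets of each gene, and fold thresholds of 1.5 and 3.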

Additional observations from a re-analysis of the deposited data

Results flagged for a closer look

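A probe set annotated to both Serpinb10 and Serpinb2 was left out of the comparison, because its signal cannot be given to either gene. It is listed because it was above the floor in Nlrp6-/-, at 3.28, and not in WT, at 2.86, a measured difference of 0.42. Against the WT floor the bound was 0.022. The probe set of Serpinb2 alone differed by 0.23.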

How the results depend on the processing

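With no replicate, a value was taken as moved when it shifted by more than 0.19, the SD of the receptor genes. Under 3 other normalizations the differences of the 9 members shifted by at most 0.036 and kept their signs. These settings could change little, because the values were already RMA normalized. The median difference of genes above both floors was 0.0044. Averaging probe sets, the lower floor and no floor could not change the member differences, since each member has 1 probe set and is above both floors. With the floor at the 99th percentile, 4.90 in Nlrp6-/- and 5.08 in WT, F3 was at a bound of 0.12, because its WT level was then below the floor, and F7 and Thbd were below both floors and gave no value. The background of 154 higher and 31 lower genes became 592 and 291 at 1.5-fold, 29 and 0 at 3-fold, and 93 higher with the floor at the 99th percentile, where 4945 genes were compared. That floor also moved the list medians to 0.92 (thrombin receptors), -0.76 (transglutaminases), -0.25 (clade B serpins), 1.03 (platelet, a bound of Pf4) and 0.00 (T and NK, a bound of Cd3d), each over the 1 gene left, and to 0.66 (epithelial), where 4 of the 7 genes left became bounds. The median of inhibitors and protein C genes was -0.11 without a floor, and that of neutrophil markers 0.38 with the floor at the 90th percentile and 0.22 without one. With the probe sets of each gene averaged, the fibroblast median was 0.65 and the dendritic cell median 0.091. No paired analysis was possible because each genotype had 1 array. Dim genes, F3, F7 and Thbd among the members, are limited by signal over background. Plau in Nlrp6-/-, at 5.09, and F13a1 in WT, at 5.38, were also little above the floor at the 99th percentile.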

Other observations

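The families to which F13a1 and Serpinb2 belong were mostly dim. Of 7 other transglutaminases, Tgm2, the tissue transglutaminase, was the one above both floors, at 7.66 in Nlrp6-/- and 8.42 in WT. Its difference of -0.76 was past 1.5-fold and opposite in sign to the 1.06 of F13a1, which carries out the same cross-linking reaction in the clot. Tgm1, Tgm3 and Tgm5 were above the floor in Nlrp6-/- only, with bounds of 0.38, 0.16 and 0.02. Of 12 other clade B serpins, 11 had a probe set and 5 were above a floor, with none 1.5-fold apart. Serpinb6a was nearest to 0 at 0.02. Serpinb8 was at -0.25, Serpinb9, an inhibitor of granzyme B, at -0.08, and Serpinb1a was above the floor in Nlrp6-/- only, with a bound of 0.41.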
